A study of Cricetulus griseus with 4 samples.

Results

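The proteasome is the barrel-shaped protease that degrades ubiquitin-tagged proteins. Its core holds an outer ring of Psma subunits on each side of paired rings of Psmb subunits, which carry the proteolytic sites. A cap of Psmc ATPases and Psmd subunits binds, unfolds and feeds in ubiquitinated proteins, and Psme activators can take the place of the cap. Psmg chaperones build the core, Psmf1 encodes the binding partner PI31, and in mammals the transcription factor NFE2L1 is known to drive proteasome genes together when proteasome capacity falls short. The genes described here are all those whose symbol starts with Psma to Psmg and a number, 47 of the 20754 genes in the table. They comprise 8 Psma, 11 Psmb, 7 Psmc, 12 Psmd and 4 Psme genes, and 5 genes of the Psmf and Psmg classes. The symbol rule also takes in Psmc3ip, whose product binds PSMC3 but acts in meiotic recombination in mouse and is no subunit.

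The cells were CHO-K1, a long-established hamster ovary line, and their RNA was sequenced after 24 hr with 25-hydroxyvitamin D3, a selective SREBP inhibitor, a selective VDR activator, or DMSO as the control. VDR is the nuclear receptor for vitamin D, and SREBP proteins switch on lipid synthesis genes; 25-hydroxyvitamin D3 is known to affect both. Each condition has 1 library. Cells of all 4 conditions received 5% lipid-depleted serum with 50 µM compactin, a statin, and 50 µM mevalonate, so the control is also a sterol-starved culture. Doses and names of the selective compounds are absent from the labels, so the responses are set side by side with no matched dose.

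Library totals were 21335614 counts for 25-hydroxyvitamin D3, 23286632 for the SREBP inhibitor, 23653262 for the VDR activator and 21353277 for DMSO. Levels are given as CPM, reads per 1000000 of the effective library size, and 1 CPM stood for 20.4 to 24.4 counts. With 1 library a condition no test between conditions was possible, and every difference below is between libraries with no replicate check. Intervals are 95% Clopper-Pearson intervals of the counts and cover counting error only. The library of 25-hydroxyvitamin D3 stood apart, with 0.753% of its counts on mitochondrial-encoded mRNAs, against 5.25% with the SREBP inhibitor, 5.93% with the VDR activator and 6.81% in DMSO. Fibroblast markers were also lowest in it by their sum. The 6 listed genes summed to 1422 CPM with 25-hydroxyvitamin D3, 3667 with the SREBP inhibitor, 2934 with the VDR activator and 4606 in DMSO. Fn1 and Col1a1 were exceptions, being lowest with the VDR activator and with the SREBP inhibitor. The part of these differences in the values below was not tested. Of the fibroblast markers, Vim, a mesenchymal filament gene, had 787 to 1481 CPM, but the collagen gene Col1a1 had only 0.302 to 0.599 CPM. The 5 leukocyte genes summed to 14.7 CPM with 25-hydroxyvitamin D3, 4.57 with the SREBP inhibitor, 5.03 with the VDR activator and 6.91 in DMSO. Nearly all of this was Cd68, at 4.52 to 14.6 CPM, while Ptprc and Cd3e were at 0 counts in all 4. The 4 ovarian genes found of 5 listed summed to 4.86, 7.02, 10.8 and 15.1 CPM in that order, with Star and Inha detected in every library and Fshr at 0 counts in all 4. The 4 epithelial genes summed to 1.03, 1.77, 0.818 and 1.06 CPM, mostly from Epcam and Cdh1, with Krt18 at 0 counts in all 4.

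Proteasome genes were highest with 25-hydroxyvitamin D3. Together the 47 genes summed to 7840 CPM with 25-hydroxyvitamin D3, 5975 with the SREBP inhibitor, 5944 with the VDR activator and 5384 in DMSO. Of the 46 measured genes, those with at least 1 CPM and 10 counts, 40 were highest with 25-hydroxyvitamin D3 and 36 were lowest in DMSO. The unmeasured gene was Psmb11, which encodes the thymus-specific catalytic subunit and had 0 counts in every library.

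Against DMSO, 25-hydroxyvitamin D3 had 19 of the 46 genes at least 1.5-fold higher, or 41.3%, where 24.2% of all 11482 genes tested were that much higher. Only Psmb9 was at least 1.5-fold lower, against a background of 23.6%. At 2-fold, 3 were higher and 0 lower, with backgrounds of 11.6% and 12.2%, so large differences were no more frequent in the group than elsewhere. Of the 46, 41 were above 0, against 51.7% of all genes. The median difference was 0.54 in log2(CPM + 1), against 0.04 over all genes tested. The group was also narrow: its interquartile range ran from 0.27 to 0.70, and that of all genes from -0.55 to 0.57. Well-expressed genes as a whole leaned upward in this comparison. Of 5759 genes with at least 50 CPM in 1 of the libraries, 30.9% were 1.5-fold higher and the median was 0.21, while 17 of the 38 proteasome genes at that level were 1.5-fold higher, with a median of 0.57. Scaling to the total count without mitochondrial mRNAs lowers every difference by about 0.18. It left 8 of the 46 genes at least 1.5-fold higher, a share near the 17.9% of all genes then that much higher. The excess of 1.5-fold calls was thus absent under that scaling. The distance between the medians of the group and of all genes was 0.50 there and 0.51 in the values above.

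With the SREBP inhibitor against DMSO, Psmg1 alone of 46 was at least 1.5-fold higher and 0 were lower, with backgrounds of 7.93% and 6.2%. The median was 0.15, against 0.01 over all genes, and 38 of 46 differences were above 0, against 51.4% of all genes. With the VDR activator against DMSO, 0 of 46 genes passed 1.5-fold in either direction, with backgrounds of 2.44% higher and 1.92% lower. The median was 0.14, against 0.01 over all genes, and 43 of 46 were above 0, against 52.1%. For these small shifts the number above 0 varied with the library scaling. Under the 4 other library scalings it lay between 34 and 39 with the SREBP inhibitor and between 42 and 43 with the VDR activator. The distance between the medians of the group and of all genes was 0.14 and 0.13 under each of these scalings. The 3 comparisons share the DMSO library, so a low value in it would move all of them.

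**Figure D1:**
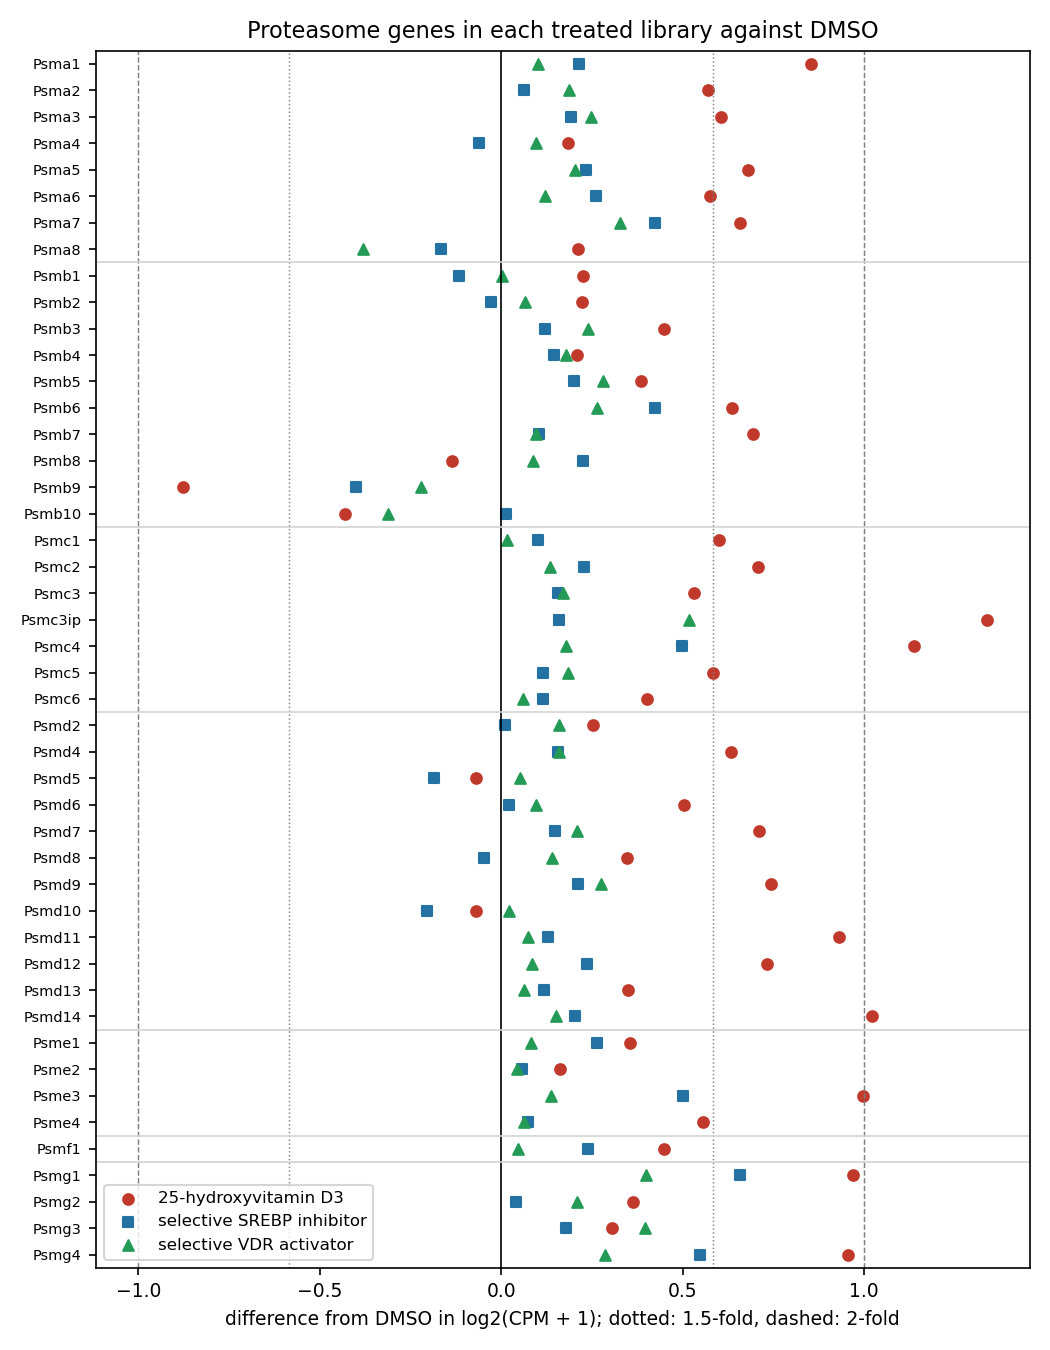
Difference of each measured proteasome gene from DMSO in log2(CPM + 1), by gene and class, for 25-hydroxyvitamin D3 (circles), the selective SREBP inhibitor (squares) and the selective VDR activator (triangles), 1 library each. Most circles lie right of the other symbols, 19 of 46 are at or past the dotted 1.5-fold line on the right, and Psmb9 lies past the one on the left.

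**Figure D2:**
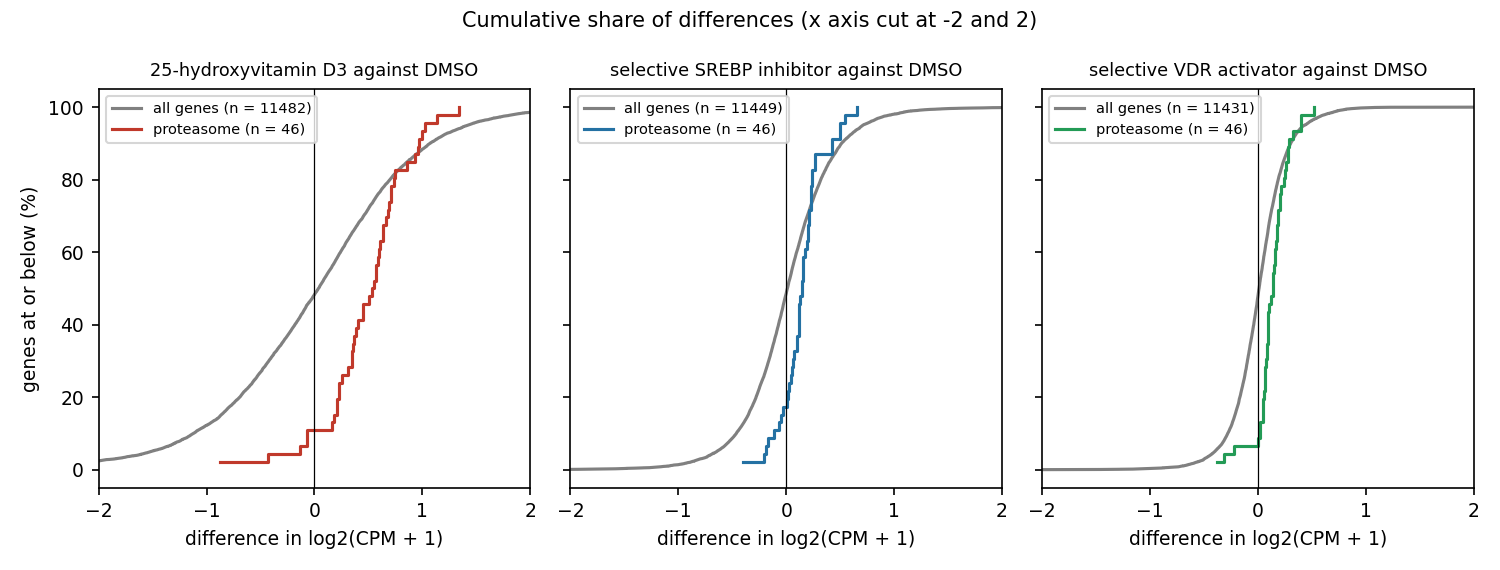
Cumulative share of genes by their difference from DMSO in log2(CPM + 1), for the 46 measured proteasome genes (colour) and all genes tested (grey), in each treated library. The proteasome curve of 25-hydroxyvitamin D3 has its median at 0.54, against 0.04 for all genes, and is the steeper of the pair.

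The outer ring of the core was higher with 25-hydroxyvitamin D3 in each of its 7 general subunits, which form the gate of the core. Psma1 differed most, with 222 CPM with 25-hydroxyvitamin D3, 142 with the SREBP inhibitor, 131 with the VDR activator and 122.5 in DMSO, and was 1.81-fold above DMSO (1.73 to 1.90) with 25-hydroxyvitamin D3. Psma4 differed least, with 210, 177, 198 and 185 CPM in the same order of libraries, 1.14-fold above DMSO (1.09 to 1.19) with 25-hydroxyvitamin D3. Psma7 was the most abundant outer-ring gene per length and had 340 CPM with 25-hydroxyvitamin D3, 288 with the SREBP inhibitor, 270 with the VDR activator and 215 in DMSO. It was the outer-ring gene with the largest difference under both selective compounds, at 1.34-fold (1.29 to 1.39) with the SREBP inhibitor and 1.26-fold (1.21 to 1.30) with the VDR activator. Psma2, Psma3, Psma5 and Psma6 were between 1.49-fold and 1.61-fold above DMSO with 25-hydroxyvitamin D3. Psma8, known in mouse as the testis-specific form of Psma7, stayed near the measuring limit with 38, 28, 22 and 32 counts in the libraries of 25-hydroxyvitamin D3, the SREBP inhibitor, the VDR activator and DMSO.

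The inner rings split by kind of subunit. All 7 standard Psmb genes were higher with 25-hydroxyvitamin D3 than in DMSO, with a median difference of 0.39 and a range from 0.21 (Psmb4) to 0.69 (Psmb7). All 3 interferon-inducible genes, which replace the standard catalytic subunits in the immunoproteasome, were lower, with a median of -0.43. Under the other 4 library scalings the standard genes were again 7 of 7 higher and the inducible genes 3 of 3 lower, with Psmb8 between -0.31 and -0.13. Among the standard catalytic subunits, the trypsin-like Psmb7 had 235 CPM with 25-hydroxyvitamin D3, 156 with the SREBP inhibitor, 155 with the VDR activator and 145 in DMSO. It was 1.62-fold above DMSO (1.55 to 1.70) with 25-hydroxyvitamin D3 but 1.08-fold and 1.07-fold with the SREBP inhibitor and the VDR activator. The caspase-like Psmb6 had 114 CPM with 25-hydroxyvitamin D3, 98.4 with the SREBP inhibitor, 88.0 with the VDR activator and 73.1 in DMSO, so that all 3 treated libraries lay at least 1.20-fold above the control. The chymotrypsin-like Psmb5, the main target of proteasome inhibitor drugs, stood at 187, 164, 174 and 143 CPM in that order, or 1.31-fold (1.25 to 1.37), 1.15-fold and 1.22-fold above DMSO. Psmb1, Psmb2 and Psmb4 were 1.16-fold to 1.17-fold above DMSO with 25-hydroxyvitamin D3, and Psmb3 was 1.37-fold above.

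Psmb9, the inducible counterpart of Psmb6, was the proteasome gene with the lowest difference. It had 11.2 CPM with 25-hydroxyvitamin D3, 16.0 with the SREBP inhibitor, 18.3 with the VDR activator and 21.5 in DMSO. All 3 treated libraries were below the control, by 1.91-fold (1.63 to 2.25), 1.34-fold (1.17 to 1.54) and 1.17-fold (1.03 to 1.34). Psmb10, the counterpart of Psmb7, had 7.85 CPM with 25-hydroxyvitamin D3, 11.03 with the SREBP inhibitor, 8.59 with the VDR activator and 10.9 in DMSO, so that 25-hydroxyvitamin D3 lay 1.39-fold (1.13 to 1.71) below DMSO, and the VDR activator 1.27-fold (1.05 to 1.54). Psmb8, the counterpart of Psmb5, had 49.6 CPM with 25-hydroxyvitamin D3, 63.9 with the SREBP inhibitor, 58.1 with the VDR activator and 54.5 in DMSO. It was 1.10-fold below DMSO (1.01 to 1.20) with 25-hydroxyvitamin D3 and 1.17-fold above it (1.09 to 1.27) with the SREBP inhibitor.

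Set against their standard counterparts on the authors' FPKM, which is per gene length, the inducible subunits made up the smallest share with 25-hydroxyvitamin D3. Psmb9 stood at 9.38% of Psmb6 with 25-hydroxyvitamin D3 (8.15 to 10.7), 15.5% with the SREBP inhibitor (13.9 to 17.3), 19.8% with the VDR activator (17.86 to 21.96) and 28.0% in DMSO (25.2 to 31.1). These intervals do not overlap. Psmb8 stood at 16.9% of Psmb5 with 25-hydroxyvitamin D3 (15.7 to 18.1), 24.8% with the SREBP inhibitor (23.3 to 26.3), 21.3% with the VDR activator (20.0 to 22.6) and 24.3% in DMSO (22.74 to 26.03), the SREBP inhibitor and DMSO being alike within counting error. Psmb10 stood at 3.35% of Psmb7 with 25-hydroxyvitamin D3 (2.84 to 3.92), 7.09% with the SREBP inhibitor (6.22 to 8.05), 5.56% with the VDR activator (4.82 to 6.39) and 7.55% in DMSO (6.59 to 8.62). A ratio within a library does not depend on how libraries are scaled. Such a ratio also falls when the standard gene rises. From DMSO to 25-hydroxyvitamin D3, Psmb5 went from 143 to 187 CPM and Psmb8 from 54.5 to 49.6. Psmb6 went from 73.1 to 114 CPM and Psmb9 from 21.5 to 11.2. Psmb7 went from 145 to 235 CPM and Psmb10 from 10.9 to 7.85.

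**Figure D3:**
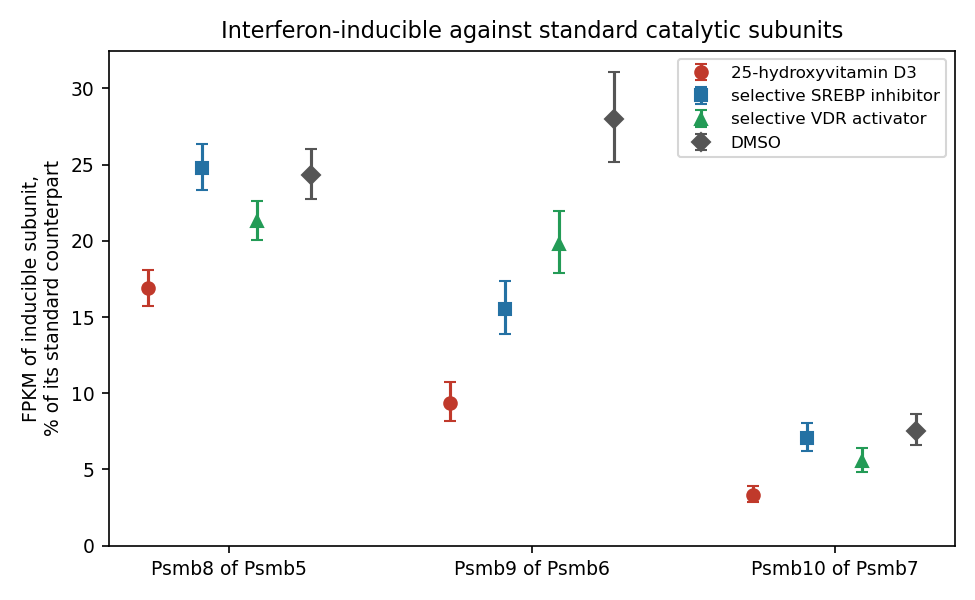
FPKM of each interferon-inducible catalytic subunit as a percentage of its standard counterpart in the 4 libraries, with bars for the 95% interval from counting error. The share is lowest with 25-hydroxyvitamin D3 in each pair, and for Psmb9 of Psmb6 it is 9.38% with 25-hydroxyvitamin D3, against 28.0% in DMSO.

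In the cap, the 6 ATPase subunits of the unfolding ring were all higher with 25-hydroxyvitamin D3, with a median of 0.59. Psmc4 had the largest difference among them and was one of the 3 proteasome-named genes past 2-fold. It had 230 CPM with 25-hydroxyvitamin D3, 147 with the SREBP inhibitor, 118 with the VDR activator and 104 in DMSO, and was 2.21-fold (2.11 to 2.33), 1.42-fold (1.34 to 1.49) and 1.13-fold (1.07 to 1.20) above DMSO. Every pair of the 4 libraries differed by more than counting error. Psmc1, Psmc2, Psmc3 and Psmc5 were 1.45-fold to 1.64-fold above DMSO with 25-hydroxyvitamin D3. With the VDR activator Psmc1 had 191 CPM, against 189 in DMSO, a ratio of 1.01 (0.97 to 1.06). Psmc6 had the smallest difference, with 206 CPM with 25-hydroxyvitamin D3, 169 with the SREBP inhibitor, 162 with the VDR activator and 156 in DMSO.

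The lid, which removes ubiquitin chains before degradation, was higher with 25-hydroxyvitamin D3 in all 7 listed subunits, with a median of 0.71. Psmd14, the deubiquitinating enzyme of the lid, had 180 CPM with 25-hydroxyvitamin D3, 102 with the SREBP inhibitor, 98.1 with the VDR activator and 88.3 in DMSO. It was 2.04-fold above DMSO (1.93 to 2.16) with 25-hydroxyvitamin D3, against 1.15-fold and 1.11-fold with the SREBP inhibitor and the VDR activator. Psmd11, a lid scaffold subunit, was next at 324 CPM with 25-hydroxyvitamin D3, 185 with the SREBP inhibitor, 178 with the VDR activator and 169 in DMSO, and in both genes the library of 25-hydroxyvitamin D3 stood alone while the other 3 lay close together. Psmd12, a scaffold subunit of the same kind, had 189, 134, 120 and 113 CPM in that order and the largest SREBP inhibitor difference of the Psmd class, at 1.18-fold. Psmd6, Psmd7, Psmd8 and Psmd13 were between 1.28-fold and 1.64-fold above DMSO with 25-hydroxyvitamin D3. Psmd4, a ubiquitin receptor, was 1.55-fold above DMSO (1.49 to 1.62), and Psmd2, the large scaffold of the base, only 1.19-fold (1.16 to 1.22).

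Psmd1 and Psmd3 do not appear under their symbols and so fall outside the rule, but other rows are described as these subunits. LOC100760261, described as regulatory subunit 1, had 355 CPM with 25-hydroxyvitamin D3, 217 with the SREBP inhibitor, 251 with the VDR activator and 240 in DMSO. Of the rows described as regulatory subunit 3, LOC103164599 had 180, 134, 138 and 139 CPM in that order and LOC100759692 had 235, 173, 182 and 186 CPM. All 3 rows were above DMSO with 25-hydroxyvitamin D3, but below it with the SREBP inhibitor, where 38 of 46 members were above. The interval of the ratio to DMSO with the SREBP inhibitor lay below 1 for LOC100760261 and LOC100759692 and included 1 for LOC103164599. These rows were looked up by description after the table was seen.

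Assembly factors did not follow the subunits uniformly. Among the Psmd genes that code for chaperones of the cap base, Psmd9 had 68.3 CPM with 25-hydroxyvitamin D3, 46.9 with the SREBP inhibitor, 49.1 with the VDR activator and 40.4 in DMSO. Its 1.21-fold difference (1.11 to 1.33) was the largest of the Psmd class with the VDR activator. The other base chaperones were not higher with 25-hydroxyvitamin D3: Psmd10, also known as the oncoprotein gankyrin, had 25.3, 22.9, 27.0 and 26.6 CPM in the same order. Psmd5 had 102, 93.9, 111 and 107 CPM. For both, the interval of 25-hydroxyvitamin D3 against DMSO included a ratio of 1 (0.84 to 1.07 and 0.90 to 1.01), and both were lowest with the SREBP inhibitor.

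Of the chaperones that build the core, Psmg1 was at 96.4 CPM with 25-hydroxyvitamin D3, 77.5 with the SREBP inhibitor, 64.6 with the VDR activator and 48.7 in DMSO. It was 1.98-fold (1.83 to 2.13), 1.59-fold (1.47 to 1.72) and 1.33-fold (1.23 to 1.43) above DMSO, and with the VDR activator only Psmg3 of its class was as high. Its partner Psmg2, with which it forms the chaperone of the outer ring, was at 30.4, 24.1, 27.2 and 23.4 CPM in the same order, and so did not share the size of that difference. Psmg4 was at 17.2 CPM with 25-hydroxyvitamin D3, 12.7 with the SREBP inhibitor, 10.4 with the VDR activator and 8.38 in DMSO. Psmg3, its partner, was highest with the VDR activator, at 21.2, 19.3, 22.6 and 17.0 CPM in that order, or 1.33-fold above DMSO (1.17 to 1.53) with the VDR activator. Psmf1 was at 69.5, 59.98, 52.3 and 50.7 CPM.

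The activators were higher with 25-hydroxyvitamin D3 than in DMSO by unequal amounts. Psme3, which forms the nuclear PA28 gamma ring, had 342 CPM with 25-hydroxyvitamin D3, 242 with the SREBP inhibitor, 188 with the VDR activator and 171 in DMSO. With 25-hydroxyvitamin D3 it was 2.00-fold above DMSO (1.93 to 2.09), just short of the limit at a difference of 0.999, and 1.42-fold (1.36 to 1.48) with the SREBP inhibitor. Psme1 and Psme2, which form the interferon-inducible PA28 alpha-beta ring, were only 1.28-fold (1.20 to 1.37) and 1.12-fold (1.05 to 1.19) above DMSO with 25-hydroxyvitamin D3. Psme2 was at 104 CPM with 25-hydroxyvitamin D3, 96.3 with the SREBP inhibitor, 95.3 with the VDR activator and 92.5 in DMSO, the lowest difference of its class in all 3 comparisons; without mitochondrial mRNAs in the scaling it lay at -0.02 with 25-hydroxyvitamin D3. Psme4, which encodes the large activator PA200, was at 411, 294, 292 and 279 CPM in the same order.

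Psmc3ip, the gene that is no subunit, had the largest difference of the 46, with 33.0 CPM with 25-hydroxyvitamin D3, 14.004 with the SREBP inhibitor, 18.3 with the VDR activator and 12.4 in DMSO. It was 2.65-fold above DMSO (2.30 to 3.07) with 25-hydroxyvitamin D3 and 1.47-fold (1.26 to 1.71) with the VDR activator. Without it, 18 of 45 genes were at least 1.5-fold and 2 at least 2-fold higher with 25-hydroxyvitamin D3.

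Per length, subunits of one ring were of the same order but not equal. The outer-ring genes ran from 148 (Psma3) to 441 FPKM (Psma7) with 25-hydroxyvitamin D3 and from 94.6 (Psma1) to 295 FPKM (Psma7) in DMSO, with Psma7 highest in all 4 libraries. The 6 ATPases were closest to one another, within 1.56-fold with 25-hydroxyvitamin D3 and 1.54-fold in DMSO, Psmc5 being lowest in each library. Median levels with 25-hydroxyvitamin D3 were 164 FPKM for the outer ring, 206 for the standard inner-ring genes and 139 for the ATPases, against 148, 140 and 89.98 FPKM in DMSO. These medians can fall on different genes, for the outer ring on Psma4 with 25-hydroxyvitamin D3 and Psma6 in DMSO. Taken gene by gene, the median difference in log2(CPM + 1) was larger for the outer ring, at 0.61, than for the standard inner-ring genes, at 0.39. The inducible inner-ring genes had medians of 11.6 FPKM with 25-hydroxyvitamin D3 and 23.4 in DMSO.

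**Figure D4:**
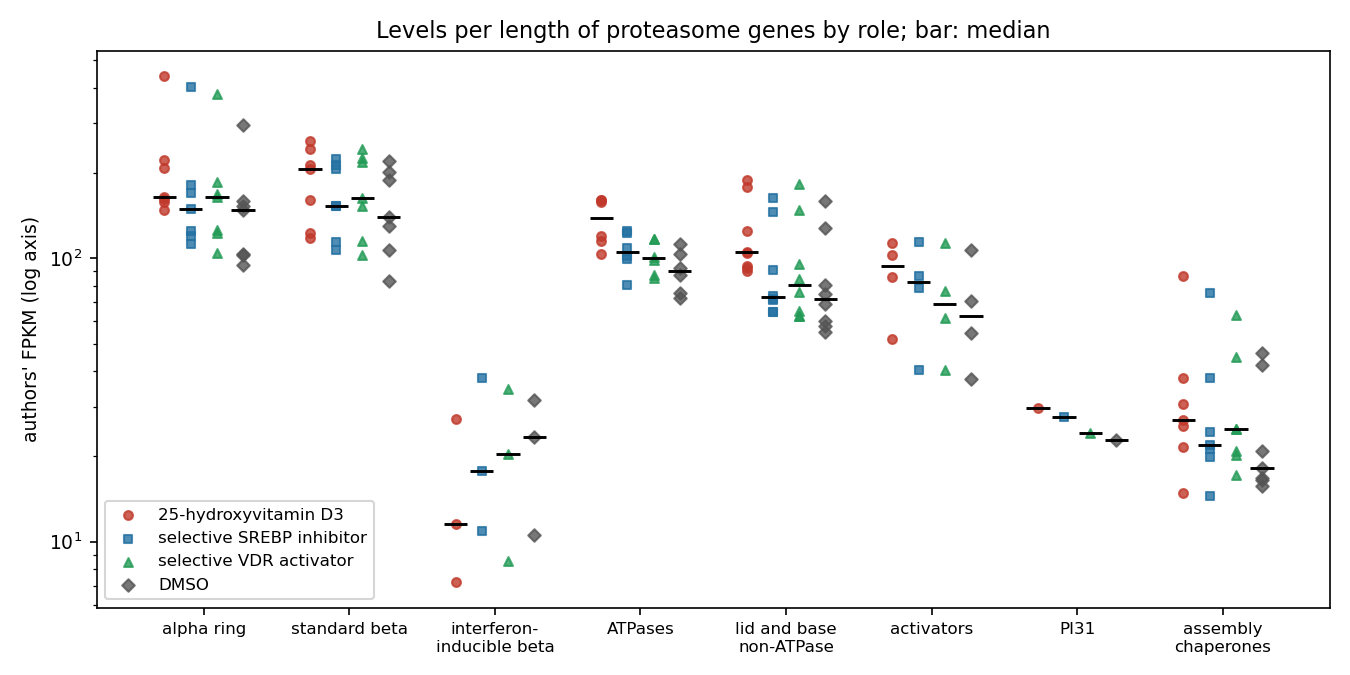
The authors' FPKM (log axis) of proteasome genes by role in the 4 libraries, 1 point a gene with a bar at the median; Psma8, Psmb11, Psmc3ip and Psmd13, which has 2 rows, are left out. The inducible inner-ring genes lie below the standard ones in each library, with medians of 11.6 FPKM with 25-hydroxyvitamin D3 and 23.4 in DMSO, against 206 and 140 for the standard genes.

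The treated libraries can also be set directly against each other, without DMSO. Against the SREBP inhibitor, 25-hydroxyvitamin D3 had 6 of 46 genes at least 1.5-fold higher and 0 lower, with backgrounds of 13.8% and 16.1%, and a median of 0.36, against 0.02 over all genes. Of the 46, 43 were above 0, against 51.8%. The 6 were Psma1, Psmb7, Psmc3ip, Psmc4, Psmd11 and Psmd14, of which Psmd14 was 1.77-fold (1.68 to 1.87) and Psmd11 1.75-fold (1.68 to 1.82) higher. Psmc3ip alone passed 2-fold, at 2.36-fold (2.06 to 2.70), with a background of 3.15%. Against the VDR activator, 10 genes, or 21.7%, passed 1.5-fold upward with 25-hydroxyvitamin D3 and Psmb9 downward, with backgrounds of 20.5% and 21.1%. The upward share was again near the background, while the median was 0.38, against 0.02. With at least 50 CPM, 7 of 38 were 1.5-fold higher, against 26.5% of all such genes. Of the 46, 40 were above 0, against 51.2%, and 0 passed 2-fold upward, against 8.54%. On the log2 scale Psmc4 led, at 1.95-fold (1.87 to 2.05). The SREBP inhibitor against the VDR activator had 0 of 46 past 1.5-fold in either direction, with backgrounds of 5.04% and 4.41%, and medians of 0.01 for both the group and all genes. In it 24 of 46 were above 0, against 51.1%, and between 16 and 24 under the other scalings. Within that comparison 15 genes had an interval above a ratio of 1 and 13 one below it, with Psme3 1.29-fold higher and Psmc4 1.25-fold higher with the SREBP inhibitor.

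Beyond the symbol rule, the partners Uchl5 and Akirin2 had larger differences with 25-hydroxyvitamin D3 than any subunit. Of 14 partner and assembly genes measured, 8 were at least 1.5-fold higher with 25-hydroxyvitamin D3 than in DMSO and 0 lower, with a median of 0.63, where 24.2% of all genes tested were higher and 23.6% lower by as much. Scaling without mitochondrial mRNAs left 3 of the 14, a share near the 17.9% of all genes then 1.5-fold higher. This list and those below were chosen with earlier results of these data known. An excess over the background in them is thus not independent support. Uchl5, a deubiquitinase docked on the cap, had 103 CPM with 25-hydroxyvitamin D3, 34.6 with the SREBP inhibitor, 24.3 with the VDR activator and 17.97 in DMSO. It was 5.76-fold (5.17 to 6.43), 1.92-fold (1.70 to 2.18) and 1.36-fold (1.19 to 1.54) above DMSO, while Adrm1, the cap receptor on which it docks, was 1.52-fold, 1.10-fold and 1.07-fold above. Akirin2, which helps carry proteasomes into the nucleus, was at 56.1 CPM with 25-hydroxyvitamin D3, 24.6 with the SREBP inhibitor, 21.6 with the VDR activator and 20.8 in DMSO. Pomp, the maturation factor of the core, was level, with 96.5, 101, 104 and 103 CPM in that order. Zfand5, which binds the proteasome, was at 129 CPM with 25-hydroxyvitamin D3, 78.5 with the SREBP inhibitor, 61.8 with the VDR activator and 78.5 in DMSO.

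Genes of the NFE2L1 route went different ways. Nfe2l1 itself had 1152 CPM with 25-hydroxyvitamin D3, 678 with the SREBP inhibitor, 492 with the VDR activator and 591 in DMSO. With 25-hydroxyvitamin D3 it was 1.95-fold above DMSO (1.91 to 1.99) and 2.34-fold above the VDR activator, the lowest library. Whether the Nfe2l1 level bears on the proteasome genes was not tested. The related gene Nfe2l2, which encodes NRF2, had 399, 341, 261 and 299 CPM in the same order. The small MAF partners of both factors passed 2-fold with 25-hydroxyvitamin D3 against DMSO. In the same order of libraries, Mafg was at 587, 268, 192 and 178 CPM. Mafk was at 74.97, 39.9, 23.7 and 26.2 CPM, and Maff at 38.7, 19.5, 11.9 and 14.3. Ddi2, the protease that releases active NFE2L1, read here from LOC100753562 by its description, was slightly lower in each treated library, at 242, 246, 245 and 268 CPM. In all, 4 of 14 route genes were 1.5-fold higher and 0 lower with 25-hydroxyvitamin D3, a share of higher genes near the 24.2% of all genes tested. With the SREBP inhibitor 2 were higher and 0 lower, where 7.93% of all genes were higher, and the 2 became 0 with total count scaling, with DESeq2 size factors and without mitochondrial mRNAs. With the VDR activator 0 were higher and 0 lower, where 2.44% of all genes were higher.

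Genes of ubiquitin supply and delivery were also highest with 25-hydroxyvitamin D3 by their median. Of 18 genes, 9 were at least 1.5-fold higher and 0 lower with 25-hydroxyvitamin D3 against DMSO, 2 and 0 with the SREBP inhibitor, and 0 and 0 with the VDR activator, with medians of 0.60, 0.29 and 0.05. Among all genes tested, 24.2%, 7.93% and 2.44% were higher by as much in these comparisons. The 2 of 18 with the SREBP inhibitor thus lay near the background. All 18 had at least 50 CPM, a level at which 30.9% of genes were 1.5-fold higher with 25-hydroxyvitamin D3. Total count scaling left 8 of the 18, where 21.0% of all genes were then 1.5-fold higher. Scaling without mitochondrial mRNAs lowers every difference by about 0.18, and no count under it is given for this list. Past 2-fold with 25-hydroxyvitamin D3 against DMSO were the shuttle genes Rad23b, Ubqln1 and Ubqln4, the autophagy receptor gene Nbr1, and Faf1, which binds ubiquitin and VCP. Rad23b had 577 CPM with 25-hydroxyvitamin D3, 324 with the SREBP inhibitor, 197 with the VDR activator and 184 in DMSO. In that order, Ubqln1 had 327, 192, 140 and 149 CPM, and Ubqln4 had 287, 191, 141 and 102. Nbr1 had 1023, 511, 402 and 405 CPM, and Faf1 had 186, 109, 82.0 and 77.8. The polyubiquitin gene Ubb had 325 CPM with 25-hydroxyvitamin D3, 235 with the SREBP inhibitor, 183 with the VDR activator and 171 in DMSO. Sqstm1, the autophagy receptor p62, had 229, 218, 132 and 146 CPM in that order.

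Antigen processing and interferon response genes, listed beside the inducible subunits, were mostly lower with 25-hydroxyvitamin D3. In 5 of the 11 measured genes the level was 1.5-fold or more below DMSO and in 0 above it, with a median of -0.52, where 23.6% of all genes tested were lower and 24.2% higher by as much. With either selective compound 0 of 12 passed 1.5-fold, where 6.2% of all genes were lower with the SREBP inhibitor and 1.92% with the VDR activator. The peptide transporter gene Tap2 had 45.6 CPM with 25-hydroxyvitamin D3, 91.0 with the SREBP inhibitor, 118 with the VDR activator and 131 in DMSO, and was 2.87-fold below DMSO (2.66 to 3.09) with 25-hydroxyvitamin D3. Its partner Tap1 differed less, at 43.9, 38.9, 45.1 and 46.2 CPM. Psmb8 and Psmb9 lie with Tap1 and Tap2 in one gene cluster in the RefSeq annotation (CriGri-PICRH-1.0), with Psmb8 next to both Tap genes and 3 genes between Psmb8 and Psmb9. Within this cluster Psmb9 and Tap2 were thus low with 25-hydroxyvitamin D3, and Psmb8 and Tap1 were below DMSO by less. Psmb8 had 49.6 CPM with 25-hydroxyvitamin D3, against 54.5 in DMSO. It lay between -0.31 and -0.13 in log2(CPM + 1) under the other library scalings. The interferon signalling genes Irf9 and Stat2 were also past 2-fold lower with 25-hydroxyvitamin D3 than in DMSO. Irf9 had 13.7 CPM with 25-hydroxyvitamin D3, 24.9 with the SREBP inhibitor, 29.2 with the VDR activator and 32.7 in DMSO. Stat2 had 51.1, 84.9, 91.2 and 105 CPM in that order.

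The COP9 signalosome, a complex related to the proteasome lid in subunit structure, served as a comparison. With 25-hydroxyvitamin D3 its 10 genes had a median of 0.36 and were all above DMSO, though Cops9 was at -0.08 when scaled without mitochondrial mRNAs, and Cops7a alone passed 1.5-fold, at 1.68-fold, where 24.2% of all genes tested were higher by as much. Scaled without mitochondrial mRNAs, 0 of the 10 passed. With the SREBP inhibitor and the VDR activator its medians were 0.17 and 0.11. No test of a difference between the groups of genes was made.

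**Figure D5:**
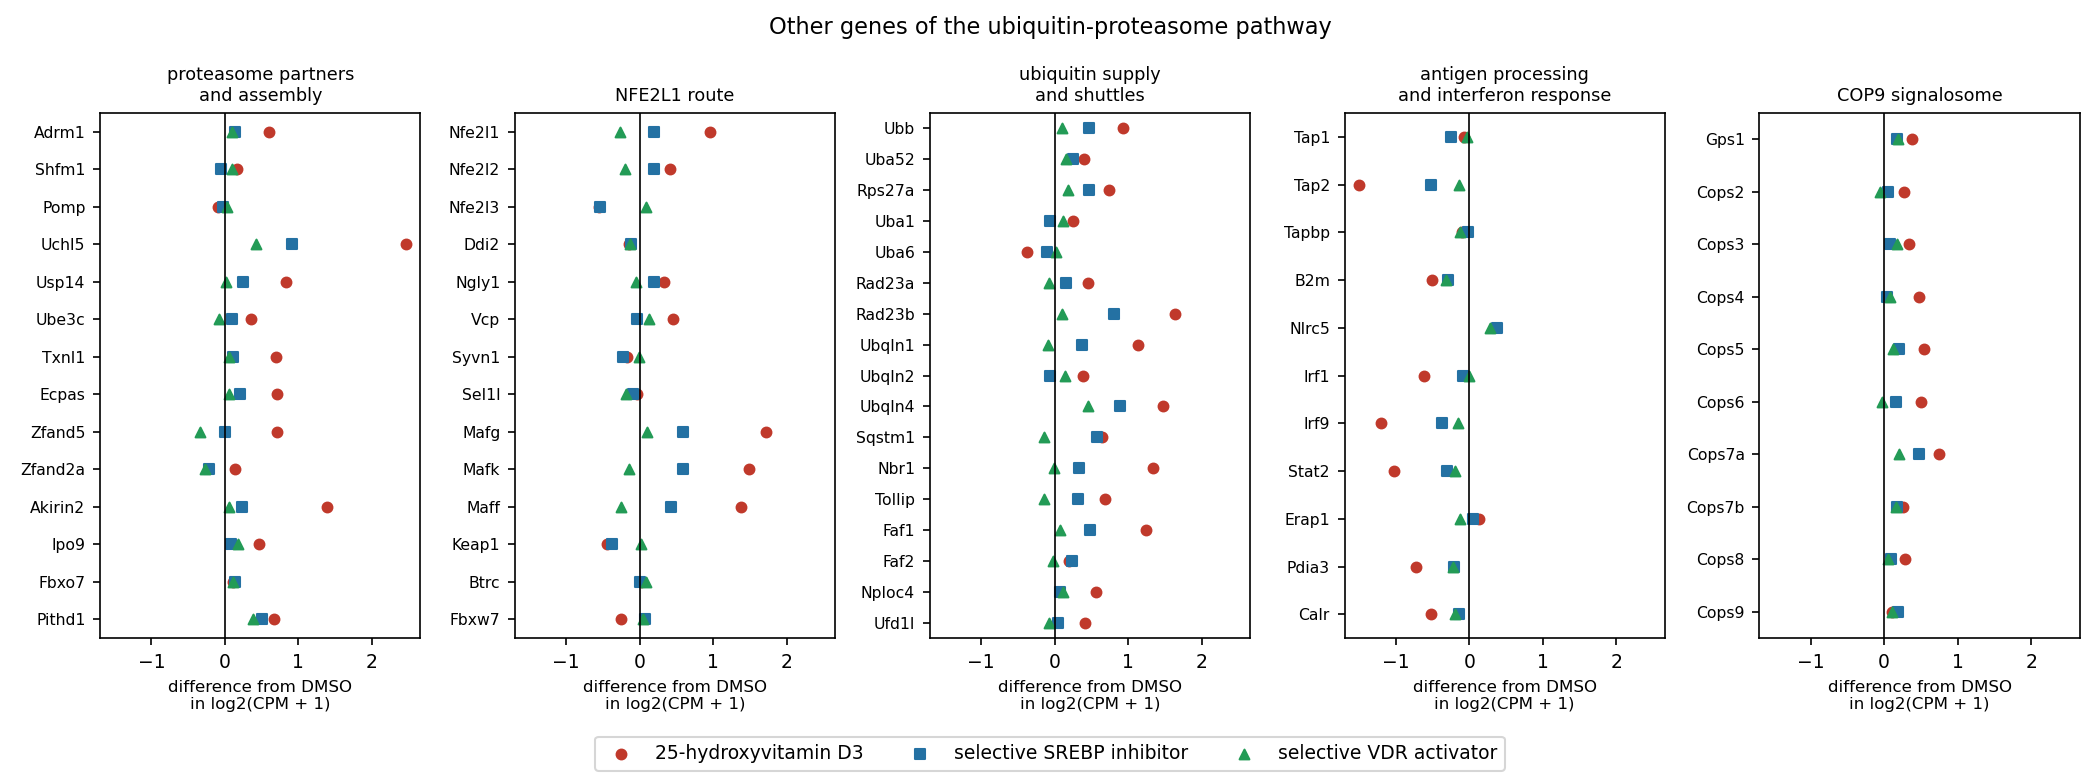
Difference from DMSO in log2(CPM + 1) of other genes of the pathway from 5 lists, for 25-hydroxyvitamin D3 (circles), the selective SREBP inhibitor (squares) and the selective VDR activator (triangles). Uchl5, Mafg and Rad23b lie farthest right with 25-hydroxyvitamin D3, Tap2 farthest left, and Pomp and Ddi2 lie near 0.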

How the data were processed

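The deposited table gives estimated counts and FPKM per gene for 4 libraries, per the file headers. TruSeq mRNA libraries were made from ISOGEN RNA, per the labels' protocols, and bcl2fastq (version 1) and TopHat2 (version 2) were used in a role that the submitters' processing notes leave unstated. No source used here gives the counting tool, strand setting or genome build, so overlapping and antisense genes cannot be told apart. FPKM are the authors' deposited values and were used as given. Where 1 gene had several rows, these were summed (20754 genes from 21266 rows) and estimated counts were rounded. TMM factors came from edgeR 4.0.16 under R 4.3.3, and alternative size factors from DESeq2 1.42.0. Differences are in log2(CPM + 1), which understates low genes. A gene counts as tested with 1 CPM and 10 counts in 1 of the 2 libraries. Intervals treat reads as independent. The rule of size was tried on simulated counts with counting error only, so that trial says nothing of variation between cultures.

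Of the 47 proteasome genes, 47 were found in the RefSeq gene table by gene identifier and 14 had counts that were not whole, as where reads are shared between copies. Sequences are not shown here. Named members are the catalytic subunits, the highest and lowest of each class in each comparison with DMSO, and those past 2-fold in any comparison; other members were added by class. Members, lists and roles were chosen with earlier results of these data known. Values of 2 listed genes are not reported here by name; the list counts and medians include them.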

Additional observations from a re-analysis of the deposited data

How the results depend on the processing

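No paired analysis was possible because each condition has 1 library. The 4 other library scalings, pseudocounts of 0.1 and 5, no filter, a minimum of 5 CPM and the largest row of a gene in place of the sum were tried; a minimum of 50 CPM, leaving out genes with counts that are not whole and leaving out Psmc3ip were chosen after seeing the data. No 1.5-fold call of a named gene changed sign, but this was all but fixed beforehand. The library scalings shift differences by about 0.18 at most, too little to reverse a 1.5-fold difference, and a pseudocount cannot reverse one. Of the 2-fold counts, medians and named differences from DMSO, 82 moved past a counting interval or 1.5 times the count, and 954 did not. Of the counts of genes at least 1.5-fold higher or lower under these settings, 130 were within 1.5 times the reported one and 14 were not. The cause was not tested. Many of the 130 are counts of 0 that stayed at 0, so this tally overstates how stable the other counts were. For 25-hydroxyvitamin D3 against DMSO, scaling without mitochondrial mRNAs gave 8 higher and 2 lower, where total count scaling gave 14 higher, and a minimum of 50 CPM left 0 lower. Against the SREBP inhibitor it had 3 higher with total count scaling, FPKM totals and scaling without mitochondrial mRNAs, the last also with 1 lower. Against the VDR activator it had 6 higher with total counts and with FPKM totals and 5 without mitochondrial mRNAs, and 0 lower with a pseudocount of 5 or a minimum of 50 CPM. A pseudocount of 0.1 gave 2 higher for the SREBP inhibitor against DMSO, and 1 lower for the VDR activator against DMSO. These scalings shift the median of all genes by up to -0.18, for 25-hydroxyvitamin D3 against DMSO and against the VDR activator. Depth limits the low genes Psma8, Psmb10 and Psmg4.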

Other observations

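Psmd13, a lid subunit, stands on 2 rows of the table with 1 gene identifier, which were summed above. The first row was 1.33-fold and the second 1.25-fold above DMSO with 25-hydroxyvitamin D3, 1.13-fold and 1.07-fold with the SREBP inhibitor, and 1.12-fold and 1.00-fold with the VDR activator. LOC103158910, described as a copy of this subunit, was 1.23-fold above DMSO with 25-hydroxyvitamin D3. No source used here says how reads were divided among these rows, so the level of Psmd13 is uncertain. The rows of LOC100760261, described as regulatory subunit 1, were 1.48-fold and 1.47-fold above DMSO with 25-hydroxyvitamin D3.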
